A study of Gossypium hirsutum with 6 samples.

Results

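The genes described here are 4 cotton genes that act on the 2 main polysaccharide networks of the plant cell wall. CesA1 and CTL1 belong to cellulose, and PG and PGIPL belong to pectin. They were taken as every gene on the array whose RefSeq synonyms include one of these names, and they are 4 of the 520 genes that the platform's gene table pairs with a probe set of their own. They are read by 5 of the 24029 tested probe sets, with 1 probe set each for CTL1, PG and PGIPL and 2 for CesA1. The genes were selected on their names and on drought minus control differences of these same 6 arrays, so their own drought values are given as a description, with no test.

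RNA came from leaves of field-grown upland cotton (Gossypium hirsutum, cultivar Bikaneri Nerma), an allotetraploid that usually carries each gene in an A and a D copy. Leaves of 3 samples came from plots where watering was stopped at peak flowering, and they were picked 18 to 19 days later. The soil then held 19.5% moisture, which was 50% of the control plots' value. Leaves of the other 3 samples came from control plots. Each arm had 6 plots, the labels call the samples of an arm biological replicates, and they do not give the plot of a sample. Each sample was hybridised to 1 Affymetrix cotton array. The p-values below therefore measure the spread between 3 arrays per group, and that number limits the precision of every value.

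Cellulose is made at the plasma membrane by rosette complexes of cellulose synthase (CesA) proteins, which spin glucan chains that crystallise into microfibrils. Chitinase-like (CTL) proteins resemble chitinases, and in Arabidopsis their loss disturbs cellulose assembly. Pectin is a galacturonic acid-rich gel between the microfibrils. Polygalacturonases (PG) cut its homogalacturonan chains, and polygalacturonase-inhibiting proteins are leucine-rich repeat proteins of the wall that block such enzymes, above all those of attacking fungi. CesA1, also listed as CelA1, is known from cotton fibres laying down the cellulose of the secondary wall, and CTL1 was likewise described from fibres at that stage. PG has the older synonym G9, the name of a cotton polygalacturonase transcript described from pollen.

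The deposited values are log2 values with the median of each probe set over the 6 arrays set to 0. They hold no absolute level, so neither the abundance of a gene in leaf nor the presence of leaf markers can be checked from them, and only differences between arrays are read here. When the groups do not overlap, this centring places the nearest drought and control arrays at equal distances on either side of 0. Over all tested probe sets the median difference, drought minus control, was 0.12, and small differences should be read against that shift.

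In drought leaves PGIPL, CTL1 and 1 of the 2 CesA1 probe sets were many-fold lower than in control leaves, by 104-fold, 20.2-fold and 15.7-fold. The other CesA1 probe set and PG were higher in drought leaves by 0.26 and 0.25 log2 units, about 1.20-fold and 1.19-fold. For all 5 probe sets the drought and control arrays did not overlap. Drought arrays lay wholly below control arrays for 3 of the 5, and they did so for 22.7% of all tested probe sets. They lay wholly above for the other 2 of the 5, against 40.1% of all tested probe sets. A difference of at least 2-fold, lower in drought, was seen for 3 of the 5 and for 8.63% of all tested probe sets. Since the genes were chosen with this contrast known, nothing is read from these shares.

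**Figure D1:**
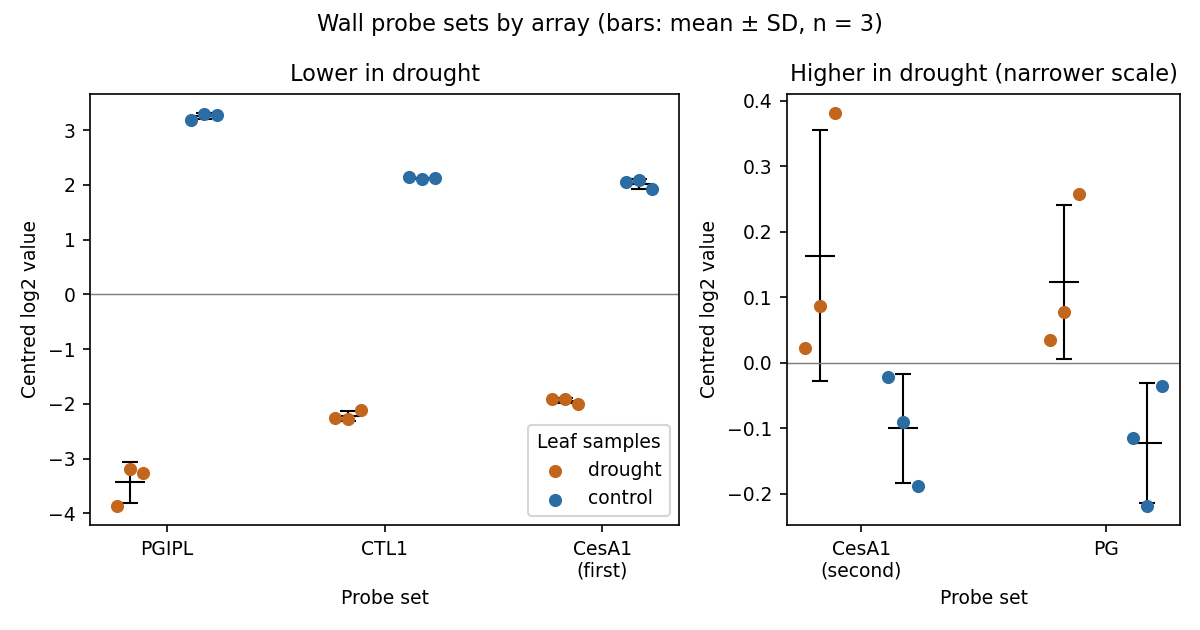
Centred log2 values (y axis) of the 5 probe sets of PGIPL, CTL1, CesA1 and PG, with the 3 drought arrays in orange left of the 3 control arrays in blue and bars for the mean ± SD (n = 3). PGIPL, CTL1 and the first CesA1 probe set sit near -3.44, -2.22 and -1.95 in drought and near 3.26, 2.12 and 2.02 in control, while the second CesA1 probe set and PG, on a narrower scale, differ by 0.26 and 0.25.

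Of the pectin genes, PGIPL (LOC107926247), named as a polygalacturonase-inhibitor-like gene, had the largest measured difference of the 4 genes. Its probe set Ghi.10609.1.S1_s_at had centred log2 values of -3.86, -3.20 and -3.26 in drought replicates 1, 2 and 3, against 3.20, 3.30 and 3.29 in control replicates 1, 2 and 3. Drought replicate 1 was the lowest array, and even the closest arrays of the 2 groups were 6.39 log2 units apart. The mean was -3.44 ± 0.37 in drought and 3.26 ± 0.05 in control (SD, n = 3 each), a difference of -6.70 (SE 0.16). Without drought replicate 1 the difference was -6.48. Only 25 of the 24029 tested probe sets had a lower value, and 1 of the 246 genes with a name did.

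The suffix _s_at on this probe set says that its probes match more than one transcript, so the A and D copies of PGIPL, or near relatives, are not told apart. The same holds for the probe set of CTL1. In bulk leaf RNA, fewer cells that carry a transcript and less of it per cell cannot be told apart either, and this applies to every difference given here.

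PG (LOC107942091), the polygalacturonase, had a small difference in the other direction. Its probe set Ghi.8043.1.S1_x_at had values of 0.035, 0.077 and 0.26 in drought replicates 1, 2 and 3, against -0.12, -0.22 and -0.035 in control replicates 1, 2 and 3. The groups were 0.071 log2 units apart at their closest, and drought replicate 3 was the highest. The mean was 0.12 ± 0.12 in drought and -0.12 ± 0.09 in control (SD, n = 3 each), a difference of 0.25 (SE 0.09). Of all tested probe sets 36.6% had a higher value. The difference was 0.15 once array medians were set equal, and -0.00074 once the medians of the hybridisation spike-ins (control RNA added in fixed amounts) were set equal, so its direction is not settled. The suffix _x_at marks probes that may also bind other sequences.

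Of the cellulose genes, CTL1 (LOC107892108) varied little between arrays of a group. Its probe set Ghi.4741.1.S1_s_at had values of -2.25, -2.28 and -2.11 in drought replicates 1, 2 and 3, against 2.14, 2.11 and 2.12 in control replicates 1, 2 and 3. The control arrays spanned 0.028 log2 units and the drought arrays 0.18, while the gap between the groups was 4.22. The mean was -2.22 ± 0.09 in drought and 2.12 ± 0.01 in control (SD, n = 3 each), a difference of -4.34 (SE 0.07). It lay below all but 201 of the 24029 tested probe sets and all but 11 of the 246 named genes.

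CesA1 (LOC107909647) is the one gene of the 4 with 2 probe sets, and they did not give the same picture. The first, Ghi.1151.1.A1_at, had values of -1.92, -1.92 and -2.00 in drought replicates 1, 2 and 3, against 2.06, 2.09 and 1.92 in control replicates 1, 2 and 3. Drought replicates 1 and 2 held the same number, as pairs of drought arrays did in 105 tested probe sets. The mean was -1.95 ± 0.05 in drought and 2.02 ± 0.09 in control (SD, n = 3 each), a difference of -3.97 (SE 0.08). There were 275 tested probe sets with a lower value.

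The second CesA1 probe set, Ghi.8461.1.A1_at, had values of 0.022, 0.086 and 0.38 in drought replicates 1, 2 and 3, against -0.022, -0.090 and -0.19 in control replicates 1, 2 and 3. The drought arrays lay above the control arrays by as little as 0.044, and drought replicate 3 stood above the rest. The mean was 0.16 ± 0.19 in drought and -0.10 ± 0.08 in control (SD, n = 3 each), a difference of 0.26 (SE 0.11). Without drought replicate 3 it was 0.15, and with spike-in centring it was 0.016.

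The 2 CesA1 probe sets thus differed from each other in their drought response by 4.23 log2 units. Within single arrays, the first minus the second gave -1.94, -2.01 and -2.38 in drought replicates 1, 2 and 3, against 2.08, 2.18 and 2.11 in control replicates 1, 2 and 3. Among the 122 genes with several probe sets this was the widest spread, next to 4.16 for XTH1, where the median spread was 0.42. Both CesA1 probe sets are of antisense design and come from separate sequence clusters of the array, so neither the strand behind the values nor which of them reads CesA1 is shown. The 5 clusters of these genes hold no other tested probe set that could be set beside them.

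**Figure D2:**
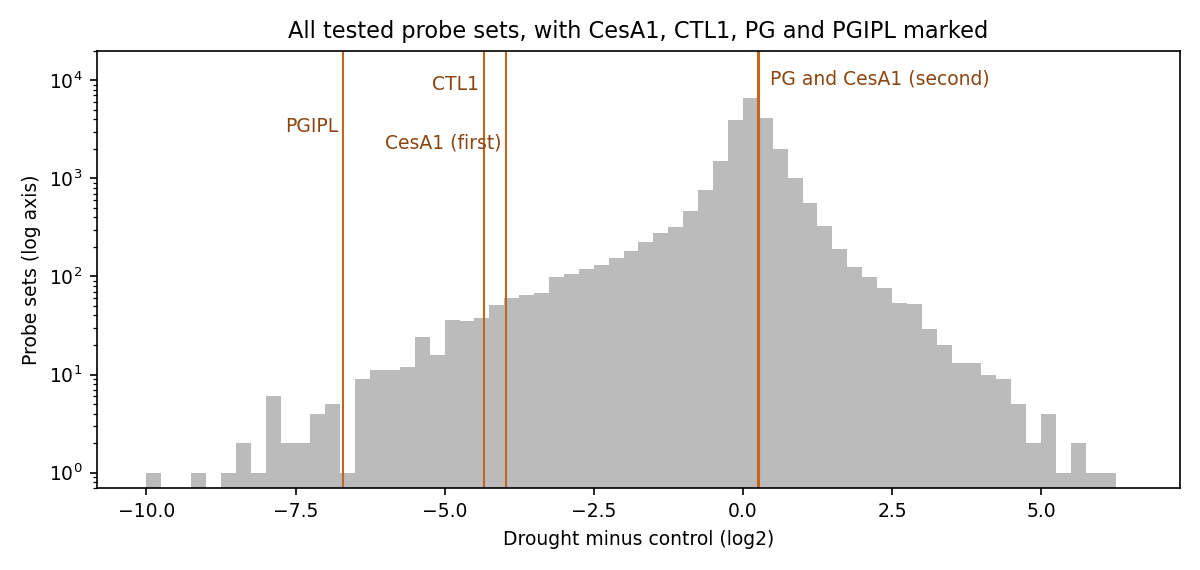
Number of tested probe sets (y axis, log scale) by their drought minus control difference in log2 units (x axis), with orange lines at the 5 probe sets of PGIPL, CTL1, CesA1 and PG. PGIPL at -6.70 has 25 probe sets below it, CTL1 and the first CesA1 probe set lie in the long lower tail, and PG and the second CesA1 probe set lie within the central peak.

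The measured differences of the 3 lower probe sets were -6.70 for PGIPL, -4.34 (SE 0.07) for CTL1 and -3.97 (SE 0.08) for the first CesA1 probe set. Different probe sets can compress a change differently, so no order of the genes' own changes is read from them. PG and the second CesA1 probe set, at 0.25 (SE 0.09) and 0.26 (SE 0.11), differed from each other by less than the spread between arrays.

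How the values depend on the scaling between arrays differed between the large and the small differences. PGIPL ran from -6.94 with spike-in centring to -5.49 after quantile normalization. CTL1 ran from -4.58 to -3.44 and the first CesA1 probe set from -4.22 to -3.14 under the same 2 settings. Quantile normalization was run on values already centred per probe set, and it gives drought and control arrays the same distribution. It shrank these large decreases and widened the increase of the wall gene XTH3 from 2.45 to 3.32. The smaller decreases under it are therefore not read as an effect of array scaling alone. PG and the second CesA1 probe set lost nearly all of their difference with the spike-in centring. Drought arrays stood 0.247 log2 units above control arrays in the median of these 27 spike-in probe sets, which is about the size of both differences.

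**Figure D3:**
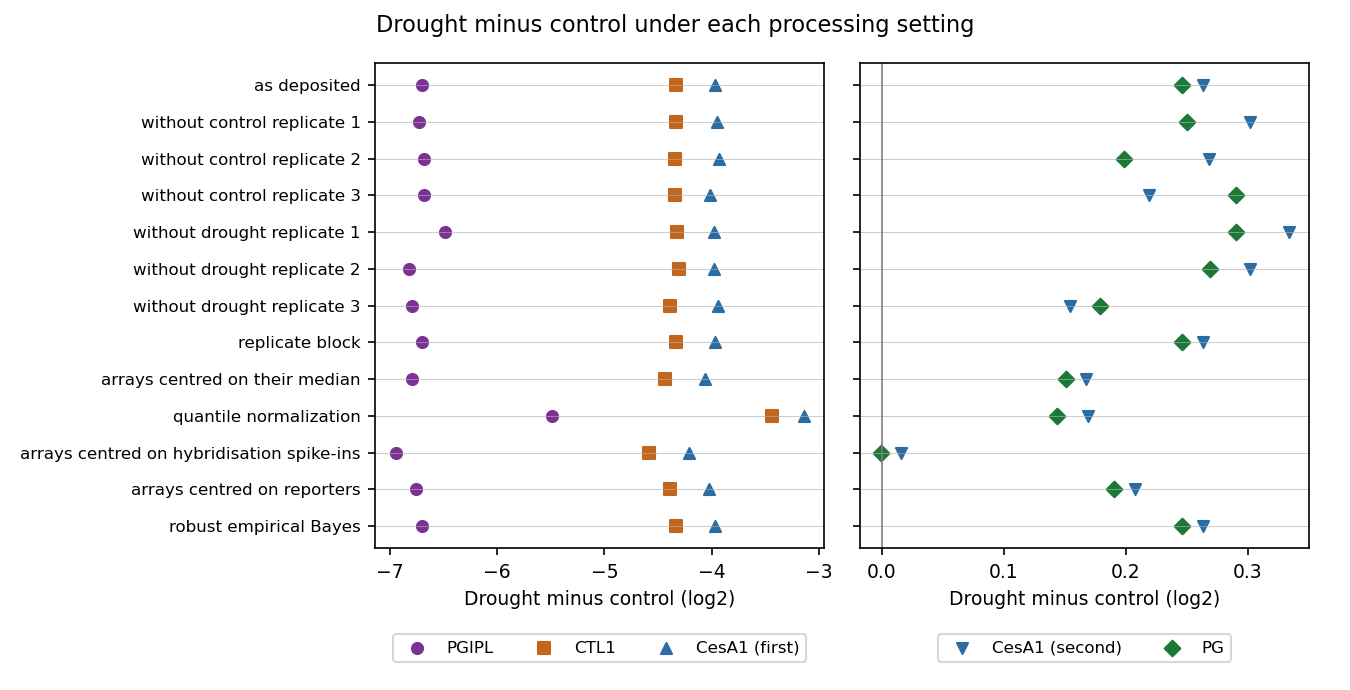
Drought minus control in log2 units (x axis) for the 5 probe sets under the values as deposited and 12 alternatives (rows), with the large decreases in the left panel and the small increases in the right panel. PGIPL, CTL1 and the first CesA1 probe set stay at or below -3.14 in every row, whereas PG and the second CesA1 probe set reach -0.00074 and 0.016 with spike-in centring.

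Other named genes of the same polysaccharides were then set beside these 4, with limma's moderated test over all 24029 probe sets and Benjamini-Hochberg adjustment, where 20.4% of all probe sets were called lower and 35.3% higher in drought at an adjusted p of 0.05. Spike-in centring gave 3989 higher and 7255 lower calls, where the deposited values gave 8485 higher and 4895 lower. That centring shifts all probe sets of an array together, and limma's p-values do not carry the uncertainty of this shared shift. Its calls are therefore less sure than its p-values say. Both other cellulose genes fell, by less than 1 log2 unit. CEL, a name used for endoglucanases, fell by 0.75 (SE 0.07, limma adjusted p = 3.71e-05) and the cellulose synthase-like gene CslD1 fell by 0.54 (SE 0.13, limma adjusted p = 0.00634). CEL had values of -0.31, -0.48 and -0.45 in drought arrays, against 0.31, 0.37 and 0.32 in control arrays.

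Of 5 other pectin genes 2 fell and 3 did not pass in limma, and their median was -0.18. None rose, nor did any at an unadjusted p of 0.05, where 3 were lower. Under each of the other scalings between arrays, and without drought replicate 1, 3 of the 5 were called lower. UGD2, a UDP-glucose dehydrogenase that makes UDP-glucuronate, fell by 0.78 (SE 0.08, limma adjusted p = 6.86e-05). GAE2, an epimerase that turns UDP-glucuronate into the UDP-galacturonate of pectin, fell by 0.72 (SE 0.08, limma adjusted p = 6.64e-05). RHM3, a rhamnose synthase (-0.18), the second epimerase GAE3 (0.039) and the pectate lyase Pel (-0.042) did not pass. Another probe set of Pel fell by 1.35. On the probe set kept for each gene the lowest of the 5 was UGD2, and over all their probe sets it was that of Pel, against -6.70 for PGIPL.

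Over all 29 named wall genes other than the 4, 21 fell, 2 rose and 6 did not pass. Their median was -0.78, where the median over all tested probe sets was 0.12. The shares were 72.4% lower and 6.90% higher. Named genes are a closer background, since the wall list was drawn from them. Of all 242 named genes other than the 4, wall genes included, limma called 101 lower and 77 higher. The median difference of those 242 was -0.089, so part of the contrast with all tested probe sets is shared by named genes in general. With antisense-design probe sets left out of the wall list, a choice made after the data had been seen, 20 wall genes fell and 2 rose. Of 7 expansin and xyloglucan genes 6 fell, and the xyloglucan-modifying XTH3 rose by 2.45. On the probe set kept for each gene EXPA1 (-4.78), EXPA11A (-3.96) and EXPA3D (-2.31) were lowest. Other probe sets gave -4.69 for XTH1, against -0.53 on the one kept, -3.57 and -2.06 for EXPA4, against -0.89, and 0.61 for EXPA3D. Fasciclin-like arabinogalactan proteins (FLA) are glycoproteins of the cell surface, and 9 of their 12 genes fell while 3 missed the threshold. On the probe sets kept, FLA13 (-4.75), FLA4 (-4.53) and FLA6 (-4.41) were lowest, while other probe sets gave -2.31 for FLA13 and -4.86 for FLA6. The FLA4 probe set is of antisense design. FLA12 (-2.44) was counted as fallen, but another of its probe sets (0.10) did not pass. FLA14 (-1.19) was too, and its other probe sets gave -0.49 and -0.12, the last of which did not pass. Of the sucrose synthases, which supply UDP-glucose, susC (-4.84) and Sus1 (-1.93) fell and SusA1 rose by 0.77, while another SusA1 probe set (0.097) did not pass. EXPA1 and susC share a sequence cluster of the array and are not shown to be separate measurements.

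**Figure D4:**
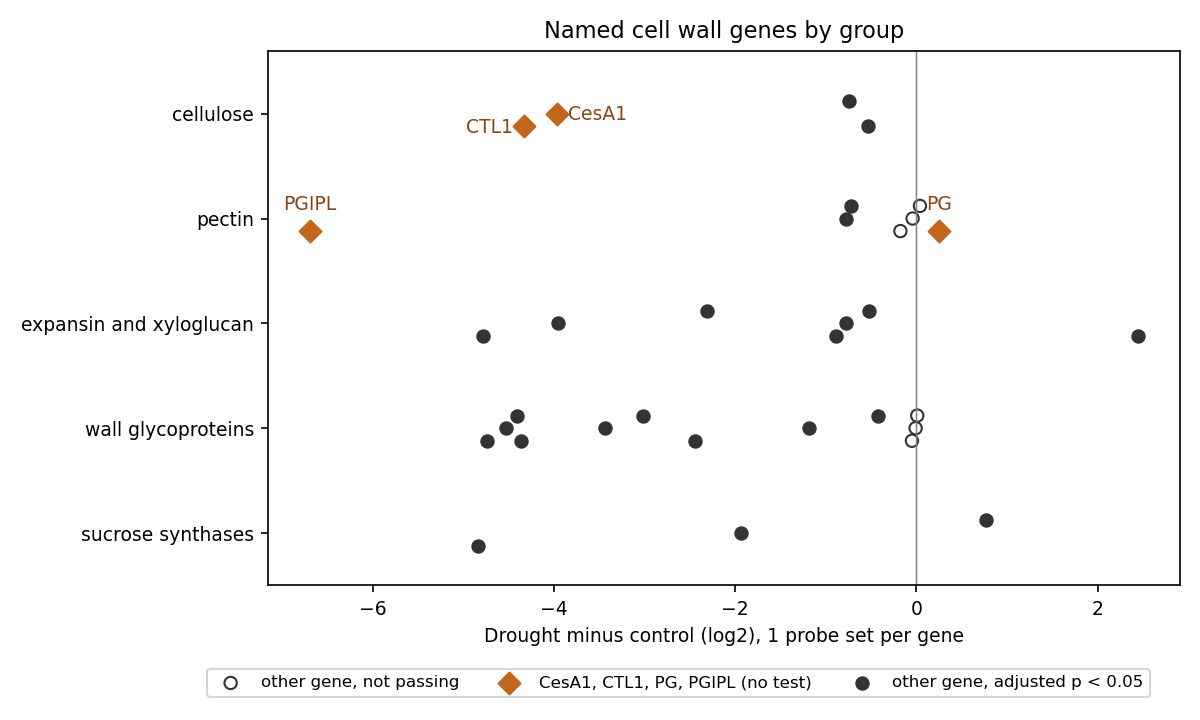
Drought minus control in log2 units (x axis), 1 probe set per gene, for named cell wall genes in 5 groups (rows), with CesA1, CTL1, PG and PGIPL as orange diamonds, other genes that passed the limma test as filled circles and those that did not as open circles. PGIPL lies at -6.70, below all others, and the cellulose row holds CTL1 (-4.34), the first CesA1 probe set (-3.97), CEL (-0.75) and CslD1 (-0.54); the second CesA1 probe set (0.26) is not drawn.

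The named genes whose 6 array values were closest to each of the 4 were found by root mean square distance in log2 units. With 3 arrays a side and this centring, a small distance says little more than a drought difference of like size. CTL1 was closest to 3 FLA genes, FLA15 (distance 0.072), FLA4 (0.16) and FLA6 (0.19). FLA15 fell by 4.37, with values of -2.12, -2.37 and -2.19 in drought arrays, against 2.12, 2.15 and 2.15 in control arrays. CesA1, on its first probe set, was closest to the flower MADS-box gene MADS-1 (0.19), the MYB gene GHMYB36 (0.19) and the fibre-associated Ghfe1 (0.21). On its second probe set the closest genes were others, namely ERF9 (0.061), gAPX (0.086) and PG (0.10). Which of the 2 probe sets reads CesA1 is not shown, so neither set of neighbours is assigned to the gene.

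PGIPL had no neighbour as near, since few named genes differed as much. Its closest were the cyclopropane fatty acid synthase CPA-FAS-2 (distance 0.36, fell by 7.40), the bHLH gene GHDEL61 (0.88, fell by 5.19) and susC (0.96). PG was closest to the ascorbate peroxidase gAPX (0.078), the polyamine enzyme gene SAMDC (0.079) and GEPH (0.082), with small differences of 0.26, 0.28 and 0.22.

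**Figure D5:**
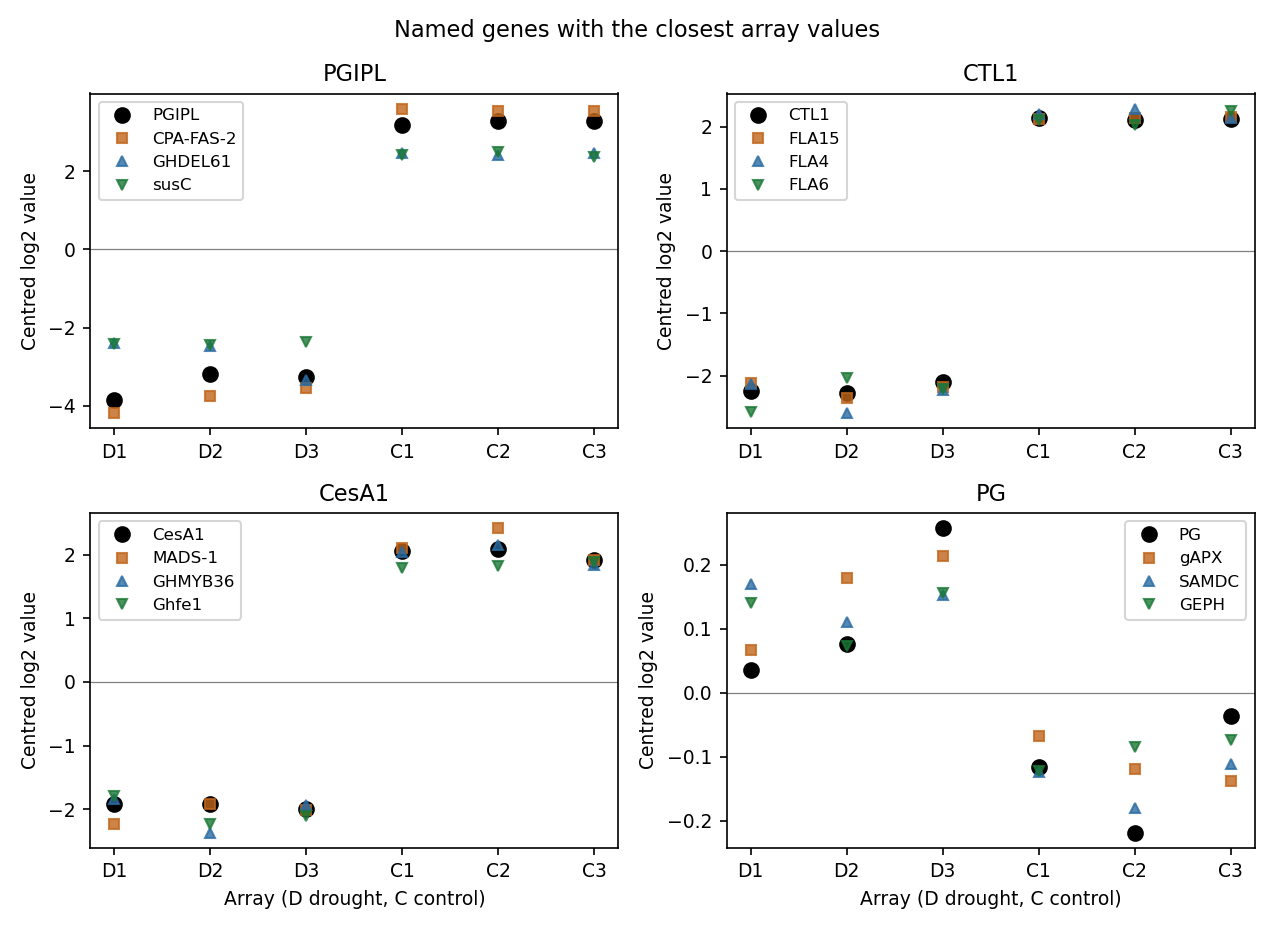
Centred log2 values (y axis) on the 3 drought arrays (D1 to D3) and 3 control arrays (C1 to C3) for PGIPL, CTL1, CesA1 (first probe set) and PG as black circles, each with its 3 closest named genes. CTL1 and its FLA neighbours nearly coincide, with distances of 0.072 to 0.19, whereas the neighbours of PGIPL lie 0.36 to 0.96 away.

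Since CesA1 and CTL1 are known from fibres, a list of fibre transcripts was read on the same arrays. Of its 5 genes 4 fell and 1 rose. The list's array medians were -1.65 to -1.41 in drought and 1.41 to 1.62 in control. On every array this median was the value of the gene E6, so it adds nothing to that gene's own difference. H6L (-4.75), Ghfe1 (-3.88) and E6 (-3.07) fell most, LTP3 (-0.65) fell less, with a second probe set (-0.20) that did not pass, and Fb2 rose by 0.47, though with spike-in centring Fb2 (0.22) did not pass (limma adjusted p = 0.179). Of 5 flower MADS-box genes 2 fell, MADS-1 (-4.21) and SEPALLATA3 (-1.56), and 3 did not pass. None of 4 seed storage and maturation genes passed in limma, and 1 was higher at an unadjusted p of 0.05. With spike-in centring vicB_At was lower (-0.43, limma adjusted p = 0.00603), a p-value that does not carry the uncertainty of the shared shift. Both genes on the list read for leaf, the Rubisco activase RCA1 and the carboxylase PEPC1, rose by 0.60, and with spike-in centring by 0.36 and 0.35. The centring leaves no level to show whether any of these transcripts was absent from a group. The part of other cell types in the differences of PGIPL, CTL1 and CesA1 was not tested.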

How the data were processed

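Leaf RNA of 3 drought and 3 control samples was measured on 1-colour Affymetrix cotton arrays, 1 per sample. The authors deposited log2 values made with RMA (version not given in the sources used here), per the submitters' processing notes. The log2 scale is taken from RMA and from the range of the values, and higher is read as more signal. The median over the 6 arrays is 0 for each probe set (largest absolute median 5e-07), so values were centred before deposit, and a filter on dim probes was not possible.

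Of 24132 probe sets, 103 Affymetrix control probe sets were left out and 24029 tested. The reporter probe sets stayed among those tested. The platform table pairs 697 tested probe sets with 1 gene (520 genes) and 46 with several, which were not named. All 697 matched RefSeq genes of assembly Gossypium_hirsutum_v2.1, used for names only; coordinates were not used, since the array's build is unnamed. Gene names are RefSeq synonyms, held by 246 genes.

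Drought was compared with control in R 4.3.3 with limma 3.58.1 (lmFit, then eBayes), without a block, two-sided, with Benjamini-Hochberg adjustment over 24029 probe sets and a threshold of 0.05. The fit was tested on simulated data. SE values are from that fit and SDs from the 3 arrays of a group. Each gene was counted on 1 probe set chosen without values: sense before antisense design, then _at, _a_at, _s_at and _x_at, then ID order. Wall lists were made by name patterns; PEPC1 and pldd, matched by accident, were removed from them. Named genes are all probe sets of the 4 genes, up to 3 called genes per direction and wall list, and the 3 closest named genes of each of the 4 on its kept probe set. The 4 genes and the lists were chosen with earlier results of these data known.

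Alternatives were leaving out each array, the replicate number as a block, 4 other scalings between arrays, robust empirical Bayes, every probe set in place of 1 per gene, and sense-design probe sets alone. The scalings, quantile normalization among them, started from the centred deposited values. The labels tie no replicate number to a shared plot, so the numbers were not taken to pair the samples. Deviations from group means of same-numbered drought and control arrays correlated at 0.033, 0.045 and 0.074 across probe sets. These values are low but lie above those of all pairs with unlike numbers.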

Additional observations from a re-analysis of the deposited data

Results flagged for a closer look

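The hybridisation spike-in probe sets lie outside the tested measurement and still differed between the groups. Their array medians were 0.19, 0.25 and 0.012 in drought replicates 1, 2 and 3, against -0.14, -0.012 and -0.13 in control replicates 1, 2 and 3, a difference of 0.247 log2 units. The 42 poly-A spike-in probe sets, also left out of the test, differed by 0.224. Their array medians were 0.16, 0.077 and 0.13 in drought replicates 1, 2 and 3. In control replicates 1, 2 and 3 they were -0.12, -0.12 and -0.075. The 52 reporter probe sets, which stayed among the tested ones, differed by 0.0557. The differences of PG (0.25) and of the second CesA1 probe set (0.26) are of the size of the hybridisation spike-in shift. Those of PGIPL, CTL1 and the first CesA1 probe set are many times larger.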

How the results depend on the processing

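PGIPL, CTL1 and the first CesA1 probe set were lower in drought under all 12 alternatives. Quantile normalization, run on the centred values, gave -5.49, -3.44 and -3.14 for them. Centring on array medians gave -4.43 for CTL1 and -4.06 for CesA1, and spike-in centring -4.58 and -4.22. Spike-in centring gave 0.016 for the second CesA1 probe set and turned PG to -0.00074, the median of all probe sets to -0.13 and GEPH to -0.031. It also lowered the probe sets called higher to 3989 and those at least 2-fold higher to 1048. The first of these counts rests on p-values that do not carry the uncertainty of the shared shift. Counting every probe set gave 2 higher and 10 lower expansin and xyloglucan probe sets and 14 lower FLA probe sets. Fits without 1 array each ranged over -6.82 to -6.48 for PGIPL, -4.39 to -4.30 for CTL1, -4.02 to -3.93 and 0.15 to 0.33 for the CesA1 probe sets, 0.18 to 0.29 for PG, and 21 to 22 lower wall genes. With the replicate number as a block, 13244 probe sets were called against 13380 without it, and the block moved no other count here by over 1.5 times. In deviations from group means, every array correlated best with the other group's array of its own number, though only at 0.033, 0.045 and 0.074. This is a hint from the data only. Of the 23 other named genes, gAPX, SAMDC and GEPH missed the threshold under at least 1 alternative.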
